A study of Mus musculus with 6 samples.

Results

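The genes described here encode 10 cytokine and interferon receptor chains of Ba/F3 cells, a mouse pro-B cell line that depends on interleukin 3 (IL3). They were listed by name (Il3ra, Csf2rb, Csf2rb2, Csf2ra, Il4ra, Il2ra, Il2rg, Il6st, Ifngr1 and Ifngr2), and every probe set annotated to 1 of these symbols alone was read on all arrays. Of the 10 genes, 9 had such a probe set, 16 probe sets in all among 22626, and Il2rg was not analysed here. One further probe set annotated jointly to Csf2rb and Csf2rb2 was left out.

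There were 6 Affymetrix expression arrays, 1 per group. The groups were ETV6-PDGFRB cells with imatinib and untreated, FIP1L1-PDGFRA cells with imatinib and untreated, and empty-vector cells kept in IL3 with imatinib and untreated. All carried a pMSCV retroviral construct. The fusion cells had been selected by outgrowth without IL3, so an untreated fusion line differs from the vector cells in IL3 supply and selection as well as in the oncogene. Imatinib (Glivec), which blocks PDGF receptor, ABL and KIT kinases, was given at 100 nM for 4 h, in medium with 10% serum. Whether a line was 1 clone is not given in the sources used here.

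Cytokine receptors of this class have no kinase of their own. A ligand-binding chain joins a signalling chain, and Janus kinases bound to their tails then activate STAT factors. In mice IL3 binds the alpha chain encoded by Il3ra, which pairs either with the common beta chain (Csf2rb), also used by IL5 and GM-CSF, or with the IL3-specific beta chain (Csf2rb2), which is particular to rodents. The fusion kinases replace this signal, which is why such cells grow without IL3.

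Values are signals on a linear scale. Signals below 20.1, the array median, were set to that floor, and where only 1 array of a pair exceeded it the fold is written as at least that size. Of the 22690 probe sets, 49.8% to 50.6% lay above the floor on each array, which follows from its definition. A difference within a line has no replicate, and 6 arrays leave wide error. The tests below come from limma, with both fusion lines taken as repeats of a fusion cell and the difference within the vector pair counted as spread. Its p-values are set by how far lines disagree and, in most fits, by the vector pair difference. Both are pooled with a spread drawn from all probe sets tested. In the imatinib fit this pooling had 2.92 prior degrees of freedom beside 2 residual. Repeat cultures were not part of the design. "Rose" and "fell" are kept for adjusted p under 0.05 over 11845 probe sets. Of the pro-B and B cell markers, 6 of 10 (Vpreb1, Pax5, Ebf1, Rag1, Cd24a and Blnk) were below the floor on every array, while Cd79a, Cd79b and Btk were above it on all 6.

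Of the 16 probe sets, 10 representing 7 genes passed the filter of 2 arrays above the floor. In the limma fit of the imatinib response, Il4ra fell on both of its tested probe sets, Ifngr1 rose, and 7 probe sets did not pass. That is 3 of 10 called, where 20.7% of all probe sets tested were called, 10.9% lower and 9.78% higher. The median log2 change over the 10 was -0.46, against 0.03 over all probe sets tested. That median counts Il4ra, Il2ra and Ifngr2 by 2 probe sets each and includes the floored Il2ra fits. It is therefore not a value for the genes as a group. Within single lines, 2 of the 8 probe sets measured in ETV6-PDGFRB cells were at least 2-fold lower with imatinib (background 2.9%) and 1 at least 2-fold higher (background 1.55%). In FIP1L1-PDGFRA cells 4 of 10 were at least 2-fold lower (background 3.05%) and 0 higher (background 1.77%). In the vector pair 0 of 10 passed 2-fold in either direction (background 0.069% lower and 0.104% higher). The lower ones were both tested Il4ra probe sets in each fusion line, joined in FIP1L1-PDGFRA cells by both Il2ra probe sets. There 3 of the 4 ratios are bounds. Il2ra on 1420691_at passed the filter only through untreated arrays, so it could only be lower. The genes were chosen with earlier results of these data known, so these shares do not test the family.

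**Figure D1:**
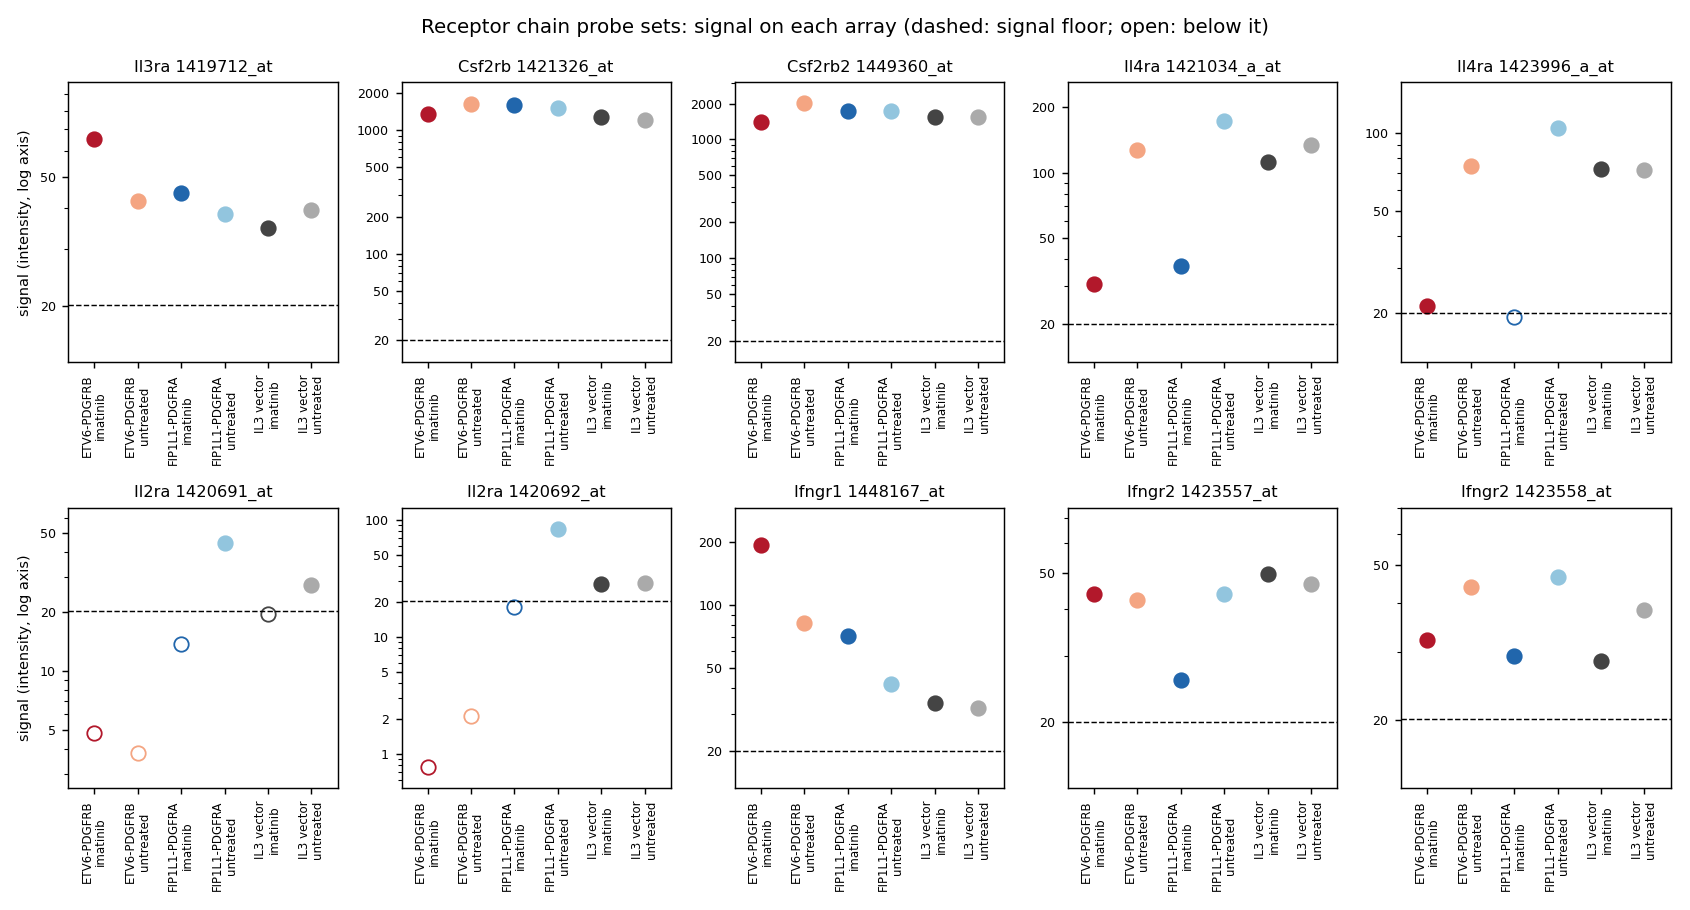
Signal (intensity, log axis) of the 10 tested receptor chain probe sets on each of the 6 arrays, 1 point per array, with the signal floor of 20.1 dashed and open points below it. The Il4ra points with imatinib in both fusion lines sit near the floor, and the Ifngr1 point of imatinib-treated ETV6-PDGFRB cells, at 193, is above all others of that probe set.

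The IL3 receptor alpha chain gene Il3ra gave signals of 65.2 with imatinib and 42.1 untreated in ETV6-PDGFRB cells. In FIP1L1-PDGFRA cells the signals were 44.4 with imatinib and 38.3 untreated, and in vector cells 34.7 with imatinib and 39.5 untreated. The treated ETV6-PDGFRB array stood above the other 5, which lay between 34.7 and 44.4. The log2 change with imatinib in fusion cells was 0.42 ± 0.14 (SE, limma adjusted p = 0.0935), which did not pass. The Il3ra probe set spanned 1.88-fold from its lowest to its highest array.

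The beta chain genes varied least of the 7 genes tested, by the ratio of the highest to the lowest array. Csf2rb, the common beta chain, gave 1335 with imatinib and 1616 untreated in ETV6-PDGFRB cells, 1580 and 1506 in FIP1L1-PDGFRA cells, and 1284 and 1193 in vector cells. Its highest and lowest arrays differed 1.35-fold, and the imatinib change of -0.10 ± 0.12 did not pass (limma adjusted p = 0.563). Csf2rb2, the IL3-specific beta chain, gave 1396 with imatinib and 2010 untreated in ETV6-PDGFRB cells. Its signals were 1737 and 1738 in FIP1L1-PDGFRA cells and 1537 and 1530 in vector cells, in the same order. The pair in ETV6-PDGFRB cells thus differed 1.44-fold, while the other pairs were nearly equal, and the joint change of -0.26 ± 0.15 did not pass (limma adjusted p = 0.245). These paralogous genes are close in sequence, and how far each probe set also detects the other transcript is not known here.

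Untreated fusion cells had somewhat higher beta chain signals than vector cells. For Csf2rb the ratio to untreated vector cells was 1.35-fold in ETV6-PDGFRB and 1.26-fold in FIP1L1-PDGFRA cells, and for Csf2rb2 it was 1.31-fold and 1.14-fold. In the limma fit of untreated fusion cells against both vector arrays, the log2 differences were 0.33 ± 0.13 (SE, adjusted p = 0.452) and 0.29 ± 0.15 (adjusted p = 0.588), and neither passed. Csf2ra, which encodes the alpha chain of the GM-CSF receptor, was below the floor on all arrays. Its probe sets ranged from 0.530 to 3.02 and from 0.386 to 0.779.

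Il4ra showed the largest imatinib response of the 7 genes tested by limma. It encodes the alpha chain of the IL4 receptor, which pairs with the common gamma chain encoded by Il2rg or with the IL13 receptor chain encoded by Il13ra1. On probe set 1421034_a_at the signal was 30.6 with imatinib and 127 untreated in ETV6-PDGFRB cells, and 37.0 with imatinib and 174 untreated in FIP1L1-PDGFRA cells. In vector cells it was 112 with imatinib and 135 untreated. Both treated fusion arrays were below the other 4. How many of all probe sets separate the arrays in such a way was not counted.

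The second Il4ra probe set, 1423996_a_at, gave 21.2 with imatinib and 74.7 untreated in ETV6-PDGFRB cells. In FIP1L1-PDGFRA cells it gave 19.3 with imatinib, under the floor, and 105 untreated, and in vector cells 72.4 with imatinib and 72.1 untreated. It thus placed the arrays in the same 2 ranges as the first. Another probe set, 1447858_x_at, was below the floor on all 6 arrays, at 3.59 to 14.3, and gives no ratio.

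With imatinib the first Il4ra probe set was 4.16-fold lower in ETV6-PDGFRB cells and 4.70-fold lower in FIP1L1-PDGFRA cells, and 1.20-fold lower in vector cells. The second was 3.52-fold lower in ETV6-PDGFRB cells and at least 5.25-fold lower in FIP1L1-PDGFRA cells, while its vector arrays differed by 0.01 on the log2 scale. Among 11900 measured probe sets in ETV6-PDGFRB cells these ratios ranked 53 and 65 from the lowest. The first ranked 35 of 11720 in FIP1L1-PDGFRA cells, and the second has no rank there, being a bound. Il4ra fell by 2.14 ± 0.13 on the log2 scale on the first probe set (SE, limma adjusted p = 0.00465) and was called lower on the second (adjusted p = 0.0058). The fitted change on the second was -2.10 with its 1 floored array, -2.13 under the 40th percentile floor and -1.06 under the 60th, so its size depends on the floor. Without the FIP1L1-PDGFRA line the adjusted p was 0.115 on both, and without the ETV6-PDGFRB line 0.124. Those fits had 1 residual degree of freedom and called 0 of all probe sets.

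Il4ra without imatinib was near the vector level in ETV6-PDGFRB cells and somewhat above it in FIP1L1-PDGFRA cells. The untreated ratio to vector cells was 1.06-fold lower in ETV6-PDGFRB and 1.29-fold higher in FIP1L1-PDGFRA cells on the first probe set. On the second it was 1.04-fold and 1.46-fold higher. The limma difference of untreated fusion cells from vector cells was 0.28 ± 0.20 on the first (SE, adjusted p = 0.699), where 1.18% of all probe sets were called in either direction. Treated fusion cells were below vector cells by 1.87 ± 0.20 on the first probe set (difference -1.87, limma adjusted p = 0.00652) and were called lower on the second (adjusted p = 0.00542), where the fitted -1.81 includes the floored array. These were 2 of the 10 receptor probe sets called lower in that comparison, with 8.32% of all probe sets called lower and 7.18% higher. Each fit against vector cells took the treated and untreated arrays of a single vector line as repeats. It had no line block, so the pairing of arrays within the fusion lines was not used. Both comparisons share the vector arrays, and without the treated vector array 0 of all probe sets passed in the second one.

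The fusion response was also set against the vector pair directly. For Il4ra the difference of responses was -1.87 ± 0.21 on the first probe set (SE, limma adjusted p = 0.219) and -2.11 on the second with its floored array (adjusted p = 0.219). It did not pass, as for every probe set tested: limma called 0 of 11845 (0%), with 1787 at an unadjusted p under 0.05. For Ifngr1 the difference of responses was 0.93 ± 0.28 (adjusted p = 0.285). The contrast with vector cells therefore rests on single array values.

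**Figure D2:**
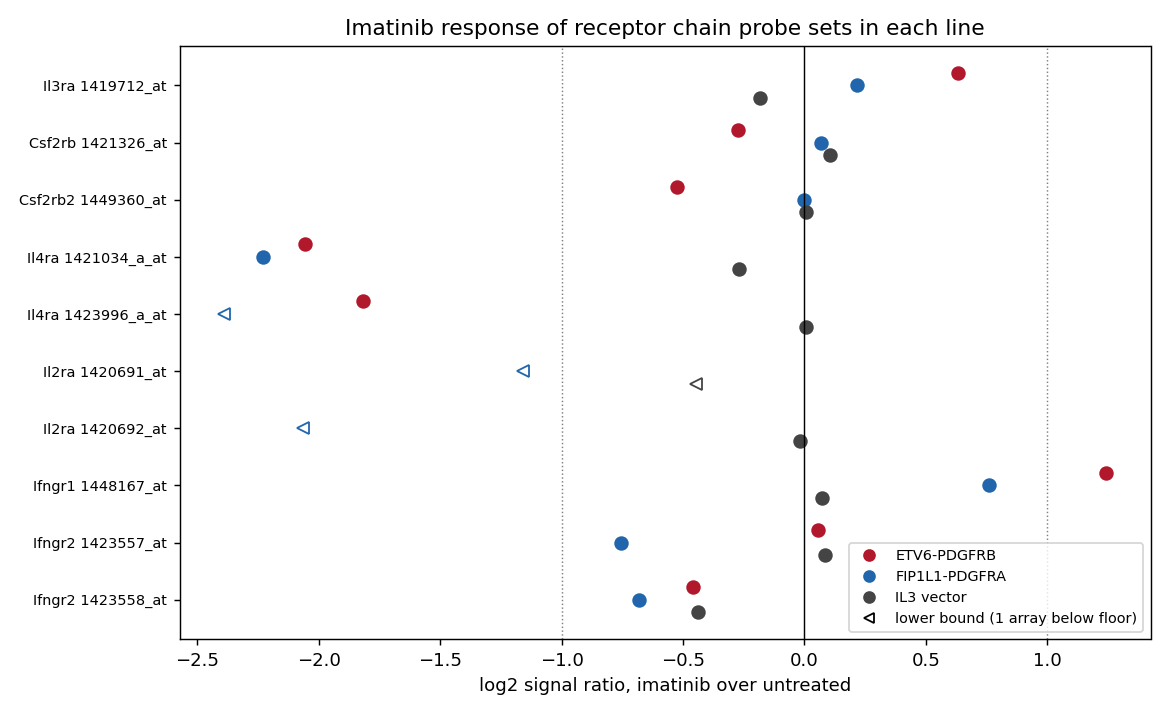
Log2 signal ratio of the imatinib array over the untreated array for each tested receptor chain probe set in ETV6-PDGFRB, FIP1L1-PDGFRA and IL3 vector cells, with 2-fold limits dotted and open triangles for lower bounds. Both Il4ra probe sets lie left of the 2-fold limit in both fusion lines and near 0 in the vector pair, and Ifngr1 lies right of 0 in both fusion lines.

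The Il2ra probe sets differed between the untreated fusion lines. Il2ra encodes CD25, the alpha chain that gives the IL2 receptor its high affinity and a gene that STAT5 is known to induce in lymphocytes. On probe set 1420692_at the signal was 0.767 with imatinib and 2.10 untreated in ETV6-PDGFRB cells, both far under the floor. In FIP1L1-PDGFRA cells it was 18.2 with imatinib, just under the floor, and 84.1 untreated, and in vector cells 28.3 with imatinib and 28.7 untreated. Probe set 1420691_at gave 4.84 and 3.81 in ETV6-PDGFRB cells with imatinib and untreated, 13.6 and 44.8 in FIP1L1-PDGFRA cells, and 19.5 and 27.4 in vector cells. On both probe sets the untreated FIP1L1-PDGFRA array was the highest. Both ETV6-PDGFRB arrays and the treated FIP1L1-PDGFRA array were below the floor, so the treated fusion lines have no Il2ra ratio between them.

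Imatinib-treated FIP1L1-PDGFRA cells were at least 4.19-fold lower than untreated ones on 1420692_at and at least 2.23-fold lower on 1420691_at. Probe set 1420691_at exceeded the floor only on the untreated FIP1L1-PDGFRA and untreated vector arrays. It passed the filter only through them, so its direction with imatinib was fixed in advance. In ETV6-PDGFRB cells there is no ratio, since both arrays were below the floor. Untreated FIP1L1-PDGFRA cells were 2.93-fold and 1.63-fold above untreated vector cells on these probe sets. Untreated ETV6-PDGFRB cells were at least 1.43-fold and at least 1.36-fold below them. Between the untreated fusion lines, ETV6-PDGFRB cells were at least 4.19-fold lower on 1420692_at and at least 2.23-fold lower on 1420691_at. These pairs are 2 of 10 receptor probe sets at least 2-fold lower, where 0.774% of all measured probe sets were. At least 2-fold higher in ETV6-PDGFRB cells were 0 of the 10 (background 0.74%). With imatinib in both lines, 1 of 8 probe sets, Ifngr1, passed 2-fold in favour of ETV6-PDGFRB cells (background 0.605%), and 0 were lower (background 0.596%).

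These Il2ra differences rest on single arrays. The limma contrast of the fusion lines did not call Il2ra, with adjusted p = 0.295 on 1420692_at and 0.349 on 1420691_at. The imatinib response of the joined fusion lines gave adjusted p = 0.177 and 0.231. Among the fusion arrays only untreated FIP1L1-PDGFRA exceeded the floor, so both contrasts had the same estimate, SE and unadjusted p. They are not separate results, and with the change resting on that array they cannot tell line from treatment. Floored arrays enter those fits as equal values, so their estimates are not given as bounds. Il6st encodes gp130, the shared signalling chain of the IL6 and LIF receptors, which parental Ba/F3 cells are known to lack. All 3 of its probe sets were below the floor on all 6 arrays, and their signals ranged from 0.366 to 7.49.

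Ifngr1 rose with imatinib and was highest in ETV6-PDGFRB cells. It encodes the chain that binds interferon gamma, and Ifngr2 encodes the partner chain that brings JAK2 into the complex. The Ifngr1 signal was 193 with imatinib and 81.7 untreated in ETV6-PDGFRB cells, and 71.1 with imatinib and 42.0 untreated in FIP1L1-PDGFRA cells. In vector cells it was 34.0 with imatinib and 32.3 untreated, below all 4 fusion arrays. The treated array was the higher one in each fusion line, although the treated FIP1L1-PDGFRA array lay below the untreated ETV6-PDGFRB array.

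With imatinib Ifngr1 was 2.37-fold higher in ETV6-PDGFRB, 1.69-fold higher in FIP1L1-PDGFRA and 1.05-fold higher in vector cells. Its rank from the highest was 71 of 11900 in the first line and 477 of 11720 in the second. Ifngr1 rose by 1.002 ± 0.14 on the log2 scale (SE, limma adjusted p = 0.0153). With the 4 fusion arrays alone the adjusted p was 0.0503 at the same size of change. Without the FIP1L1-PDGFRA line the change was 1.24 (adjusted p = 0.115) and without the ETV6-PDGFRB line 0.76 (adjusted p = 0.124), in fits that called 0 of all probe sets.

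Ifngr1 in untreated cells was 2.53-fold above vector cells in ETV6-PDGFRB and 1.30-fold above them in FIP1L1-PDGFRA cells. The limma difference of untreated fusion cells from vector cells was 0.82 ± 0.50 (SE, adjusted p = 0.641), and that of treated fusion cells was 1.82 ± 0.50 (adjusted p = 0.0585). Neither passed. ETV6-PDGFRB cells exceeded FIP1L1-PDGFRA cells 2.72-fold with imatinib and 1.95-fold without it. Over both treatments the log2 difference between the fusion lines was 1.20 ± 0.14 (limma adjusted p = 0.0589), just outside the threshold, in a comparison that called 0.371% of all probe sets and 0 of the 10 receptor probe sets. Over the other settings this adjusted p fell on either side of the threshold. It was 0.117 under the 40th percentile floor, 0.068 with quantile normalization and 0.175 with the pseudocount and no filter. It was 0.0369 with 1 probe set per gene, 0.0464 with hybridization control scaling, 0.0313 with the pseudocount and 0.0344 under the 60th percentile floor.

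Markers of other cell types also differed between arrays. No list of them was tested between the fusion lines. The summed signal of 9 mast and basophil markers was 5591 with imatinib and 4091 untreated in ETV6-PDGFRB cells, 1173 and 606 in FIP1L1-PDGFRA cells, and 1002 and 1171 in vector cells. Most of the ETV6-PDGFRB sums came from the protease genes Cma1 (3615 with imatinib and 2574 untreated) and Cpa3 (1060 and 814). Gata2 was about as high in treated ETV6-PDGFRB cells (772) as in untreated vector cells (743), and the defining receptor genes Kit, Fcer1a and Ms4a2, with Tpsb2, were below the floor on every array. With imatinib 2 of the 5 mast markers tested rose, Cma1 (0.98 ± 0.24, SE, limma adjusted p = 0.0471) and Cpa3 (0.60 ± 0.13, adjusted p = 0.0382), against 9.78% of all probe sets called higher. The other 3 did not pass, with Hdc at -0.24 (adjusted p = 0.309).

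The summed signal of 5 erythroid markers was 1925 with imatinib and 1900 untreated in ETV6-PDGFRB cells, 1390 and 1088 in FIP1L1-PDGFRA cells, and 1215 and 1225 in vector cells. Of the 3 tested, Klf1 rose by 2.07 ± 0.23 (SE, limma adjusted p = 0.011), Tfrc fell by 0.76 ± 0.09 and Epor did not pass. Hba-a1 and Alas2 were below the floor on every array. For this and the following lists, 9.78% of all probe sets tested were called higher with imatinib and 10.9% lower. The 10 pro-B and B cell markers summed to between 423 and 556 on all arrays, and of the 4 tested Cd79b rose by 0.81 ± 0.10 (limma adjusted p = 0.0115), Btk fell by 0.60 ± 0.13 and 2 did not pass. Acta2, the 1 of 7 fibroblast markers above the floor, had 298 with imatinib and 462 untreated in ETV6-PDGFRB cells and 36.5 to 56.2 on the other 4 arrays. It fell with imatinib by 0.57 ± 0.11 (limma adjusted p = 0.0281). The myeloid marker Adgre1 had 46.2 and 61.4 in ETV6-PDGFRB cells with imatinib and untreated, 174 and 270 in FIP1L1-PDGFRA cells, and 305 and 284 in vector cells. Adgre1 fell with imatinib by 0.52 ± 0.10 (limma adjusted p = 0.0319), and Csf1r did not pass. The other 5 of that list of 7 were below the floor throughout. Of 6 T and NK cell markers 4 were below the floor throughout and 0 of the 2 tested passed by limma in the imatinib response. The part of any of these genes in the Ifngr1 or Il4ra values was not tested. In cultured cells, a change in the share of cells of one kind and a change of RNA per cell cannot be told apart.

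The Ifngr2 probe sets gave unlike patterns. On 1423557_at the signal was 44.0 with imatinib and 42.4 untreated in ETV6-PDGFRB cells, 26.0 and 43.9 in FIP1L1-PDGFRA cells, and 49.6 and 46.8 in vector cells. Only the treated FIP1L1-PDGFRA array was low on this probe set. On 1423558_at the signal was 32.0 with imatinib and 44.0 untreated in ETV6-PDGFRB cells, 29.2 and 46.8 in FIP1L1-PDGFRA cells, and 28.3 and 38.4 in vector cells. Here the treated array was the lower one in all 3 lines, the vector pair included. The joint fusion responses were -0.35 ± 0.20 (SE, limma adjusted p = 0.263) and -0.57 ± 0.17 (adjusted p = 0.0764), and neither passed.

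Single pairs of a fusion line and vector cells under the same treatment gave few ratios past 2-fold. Among untreated cells, the probe sets at least 2-fold above vector cells were Ifngr1 in ETV6-PDGFRB cells and Il2ra (1420692_at) in FIP1L1-PDGFRA cells, each 1 of 10 (background 2.02% and 1.59%). At least 2-fold lower were 0 of 10 in either line (background 0.867% and 0.292%). With imatinib, 1 of 9 was higher in each line, Ifngr1, at 5.70-fold in ETV6-PDGFRB cells (background 3.75%) and 2.09-fold in FIP1L1-PDGFRA cells (background 1.98%). Both tested Il4ra probe sets were the 2 of 9 lower in each line (background 3.91% and 2.52%). They were 3.66-fold and 3.41-fold lower in ETV6-PDGFRB cells, and 3.02-fold and at least 3.61-fold lower in FIP1L1-PDGFRA cells. The oncogene, the supply of IL3 and the selection of the lines cannot be told apart in these ratios.

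**Figure D3:**
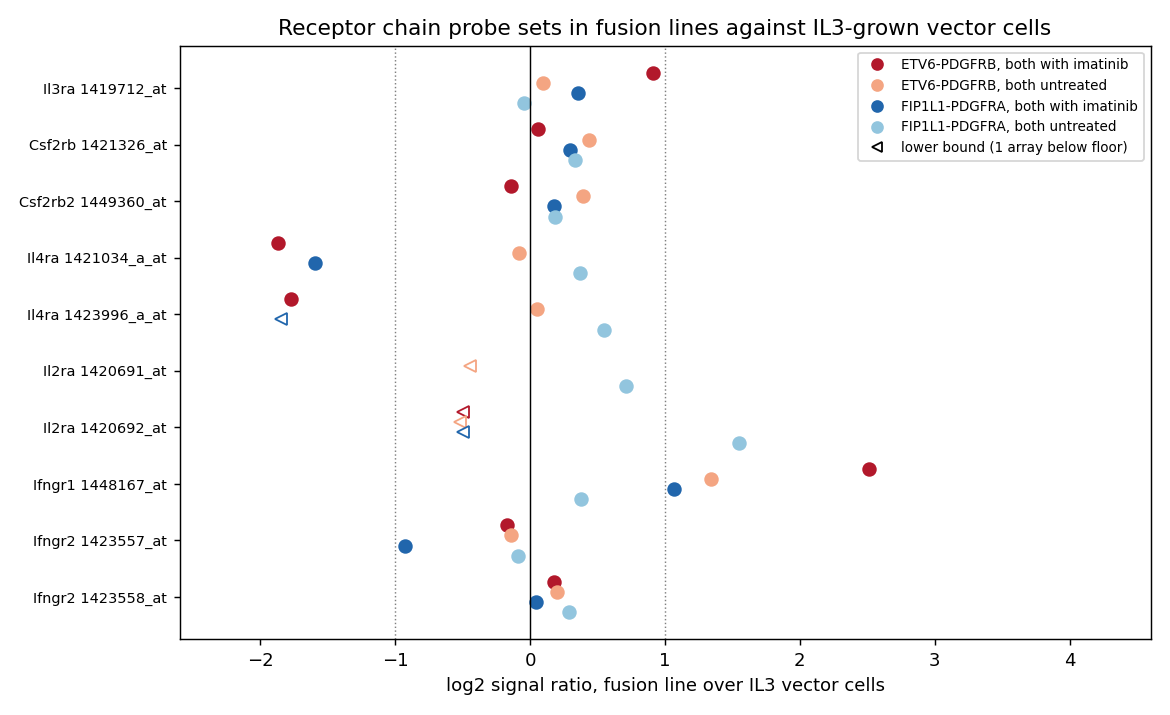
Log2 signal ratio of each fusion line over IL3 vector cells under the same treatment for the tested receptor chain probe sets, with 2-fold limits dotted and open triangles for lower bounds where 1 array was below the floor. Il4ra lies left of the 2-fold limit only in the treated pairs, and Ifngr1 lies right of 0 in all 4 pairs, farthest in treated ETV6-PDGFRB cells.

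The promoters of the genes with the widest ranges are printed next, together with that of Csf2rb2, one of the genes with the narrowest range. Il4ra and Ifngr1 were called with imatinib, and Il2ra and Csf2rb2 were not. The windows cover 250 bases before to 50 after the annotated start on the strand of the gene, from RefSeq on GRCm38.p6, and 9 of the 10 genes matched an entry. Capitals mark matches on either strand to the STAT motif TTCNNNGAA, the octamer ATGCAAAT, the forkhead motif GTAAACA, the GC box GGGCGG and the E-box CACGTG, and neighbouring GC boxes can overlap. The windows are chr7:125552021-125552320 (plus strand) for Il4ra, chr10:19591699-19591998 (plus) for Ifngr1, chr2:11642542-11642841 (plus) for Il2ra and chr15:78305672-78305971 (minus) for Csf2rb2.
Il4ra: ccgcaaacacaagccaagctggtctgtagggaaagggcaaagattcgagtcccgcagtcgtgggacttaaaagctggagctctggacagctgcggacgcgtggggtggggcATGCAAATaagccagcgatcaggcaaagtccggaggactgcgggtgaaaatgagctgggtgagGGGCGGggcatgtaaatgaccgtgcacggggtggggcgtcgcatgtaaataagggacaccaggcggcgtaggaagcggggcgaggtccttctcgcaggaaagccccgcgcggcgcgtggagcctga
Ifngr1: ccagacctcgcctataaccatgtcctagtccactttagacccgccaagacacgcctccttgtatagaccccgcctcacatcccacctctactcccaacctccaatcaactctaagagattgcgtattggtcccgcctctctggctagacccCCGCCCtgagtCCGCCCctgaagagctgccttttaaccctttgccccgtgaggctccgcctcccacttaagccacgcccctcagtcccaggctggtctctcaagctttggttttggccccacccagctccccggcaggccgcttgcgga
Il2ra: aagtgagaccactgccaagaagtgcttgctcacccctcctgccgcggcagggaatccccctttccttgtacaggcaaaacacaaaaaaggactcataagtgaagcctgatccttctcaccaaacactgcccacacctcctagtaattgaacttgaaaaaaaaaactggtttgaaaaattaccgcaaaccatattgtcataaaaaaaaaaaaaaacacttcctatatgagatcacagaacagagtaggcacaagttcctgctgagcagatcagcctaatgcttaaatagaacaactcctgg
Csf2rb2: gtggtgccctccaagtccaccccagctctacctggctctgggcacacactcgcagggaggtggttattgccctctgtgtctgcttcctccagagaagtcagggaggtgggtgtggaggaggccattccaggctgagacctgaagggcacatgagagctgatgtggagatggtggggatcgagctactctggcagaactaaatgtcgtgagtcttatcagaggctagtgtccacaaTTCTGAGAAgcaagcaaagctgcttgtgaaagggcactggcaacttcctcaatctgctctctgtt

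The STAT motif was found in 1 of the 9 windows, that of Csf2rb2 at position -15 from the start, and in 8.3% of all 32851 promoters. The octamer was found in the window of Il4ra alone, at position -139, and in 1.74% of all promoters. GC boxes were present in 6 of the 9 windows, against 35.7% of all promoters. The forkhead motif and the E-box were found in 0 of the 9, against 3.65% and 7.15%. A match describes letters in this window only, and STAT sites elsewhere in these genes were not searched. The Il2ra window had a GC content of 42.7%, those of Il4ra and Ifngr1 62.0% and 60.3%.

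The genes whose log2 signals followed Il4ra most closely over the 6 arrays, among 933 genes above the floor throughout and spanning at least 2-fold, were Fam3c (Pearson r = 0.996), Wdr43 (0.993) and Cish (0.993). Cish, a STAT5 target that restrains cytokine signalling, had 56.4 with imatinib and 284 untreated in ETV6-PDGFRB cells, 62.2 and 552 in FIP1L1-PDGFRA cells, and 297 and 309 in vector cells. Closest to Ifngr1 were Cdpf1 (r = 0.994), Rfc2 (0.992), which encodes a subunit of the replication clamp loader, and Mfge8 (0.991), which encodes a secreted glycoprotein. Rfc2 had 794 and 437 in ETV6-PDGFRB cells with imatinib and untreated, 441 and 267 in FIP1L1-PDGFRA cells, and 269 and 242 in vector cells. These correlations describe 6 arrays that share lines and treatments, and no p is attached.

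The other receptor chains, Janus kinases, adaptors and ligands of the pathway were read by 1 probe set per gene. Of 25 other receptor chains with a probe set, 16 were below the floor on all arrays and 8 were tested, of which 2 rose, 2 fell and 4 did not pass, where 9.78% of all probe sets were called higher and 10.9% lower. Their median log2 change was 0.27. Of the 2 that fell, Il12rb1 passed the filter only through the 2 untreated fusion arrays, which fixed its direction. Il10rb, the second chain of the IL10 receptor, rose by 0.50 ± 0.10 (SE, limma adjusted p = 0.0296) and Ifnar1, a chain of the type I interferon receptor, by 0.51 ± 0.11 (adjusted p = 0.0406). Il10rb had 118 with imatinib and 89.3 untreated in ETV6-PDGFRB cells, 113 and 73.9 in FIP1L1-PDGFRA cells, and 69.9 and 68.9 in vector cells.

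Il15ra, the high-affinity IL15 receptor chain, fell (limma adjusted p = 0.0455). Its treated FIP1L1-PDGFRA array was at the floor and its treated ETV6-PDGFRB array just above it, so the fitted size depends on the floor. Il12rb1, a chain of the IL12 receptor, was called lower (limma adjusted p = 0.0405). It exceeded the floor on the 2 untreated fusion arrays alone and passed the filter only through them, so its direction was fixed in advance. Its floored arrays add no spread, and that p is not a test of a fall. Il15ra had 21.8 with imatinib and 34.7 untreated in ETV6-PDGFRB cells, 17.2 and 55.5 in FIP1L1-PDGFRA cells, and 33.3 and 23.6 in vector cells. Its treated vector array was thus the higher one of that pair. Il2rb and Il13ra1, which encode partner chains for the IL2 and IL4 receptors, were below the floor on all arrays, at 1.64 to 15.5 and 2.37 to 7.05. Of these 8 genes 0 passed in untreated fusion cells against vector cells by limma.

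All 4 Janus kinase genes were above the floor on all arrays and 0 passed with imatinib by limma, with adjusted p from 0.0927 (Tyk2) to 0.881 (Jak3). Jak2, the kinase bound to the beta chains and to the IFNGR2 protein, had 164 with imatinib and 159 untreated in ETV6-PDGFRB cells, 149 and 145 in FIP1L1-PDGFRA cells, and 111 and 93.2 in vector cells. The untreated fusion arrays exceeded both vector arrays, but the log2 difference of 0.58 ± 0.14 did not pass (adjusted p = 0.184).

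Among 22 tested genes that act next to the receptors, 1 rose, 4 fell and 17 did not pass, with a median of -0.14. The share called is close to the 20.7% over all probe sets. Pik3cd, a catalytic subunit of PI 3-kinase, had 60.8 with imatinib and 291 untreated in ETV6-PDGFRB cells, 81.4 and 240 in FIP1L1-PDGFRA cells, and 411 and 366 in vector cells, and fell by 1.91 ± 0.19 (SE, limma adjusted p = 0.00905). The phosphatase gene Inpp5d, which encodes SHIP1, rose by 0.71 ± 0.09 (adjusted p = 0.0123). Stam2, an endosomal adaptor of receptor sorting, fell by 0.64 ± 0.12 (adjusted p = 0.0298). The adaptor gene Gab2 (adjusted p = 0.0405) and the RAS activator gene Sos1 (adjusted p = 0.0384) fell as well. For Sos1 both treated fusion arrays were at the floor, and for Gab2 the treated ETV6-PDGFRB array alone.

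Of 16 ligand genes, 12 were below the floor on all arrays, among them Il3, Csf2, Il2, Il4 and Ifng, the ligands of most of the receptors described here. Of the 4 tested, 2 fell, 1 rose and 1 did not pass, against 10.9% of all probe sets called lower and 9.78% higher. Lif, a ligand that signals through gp130, had 19.1 with imatinib and 161 untreated in ETV6-PDGFRB cells, 12.1 and 95.0 in FIP1L1-PDGFRA cells, and 34.8 and 28.9 in vector cells, and fell (limma adjusted p = 0.00598, with both treated fusion arrays at the floor). Il6 fell by 1.01 ± 0.10 (adjusted p = 0.00836) and had 190 with imatinib and 358 untreated in ETV6-PDGFRB cells, 209 and 447 in FIP1L1-PDGFRA cells, and 180 and 181 in vector cells. Il15 rose by 0.90 ± 0.15 (adjusted p = 0.0209).

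Lif and Il6 were the 2 ligand genes called in untreated fusion cells against vector cells, both higher, where 1.05% of all probe sets were called higher and 0.135% lower. The log2 differences were 1.96 for Lif (limma adjusted p = 0.0218) and 1.15 ± 0.14 for Il6 (SE, adjusted p = 0.0203). That fit took the treated and untreated arrays of a single vector line as repeats, without a line block. Without the treated vector array, 4 probe sets in all were called in that comparison, and without either fusion line 0. None of the 10 receptor probe sets was called there. Of these, 2 had unadjusted limma p below 0.05, as did 1269 of all 11845 probe sets tested. The smallest adjusted p among the 10 was 0.400 (Ifngr2 on 1423558_at).

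**Figure D4:**
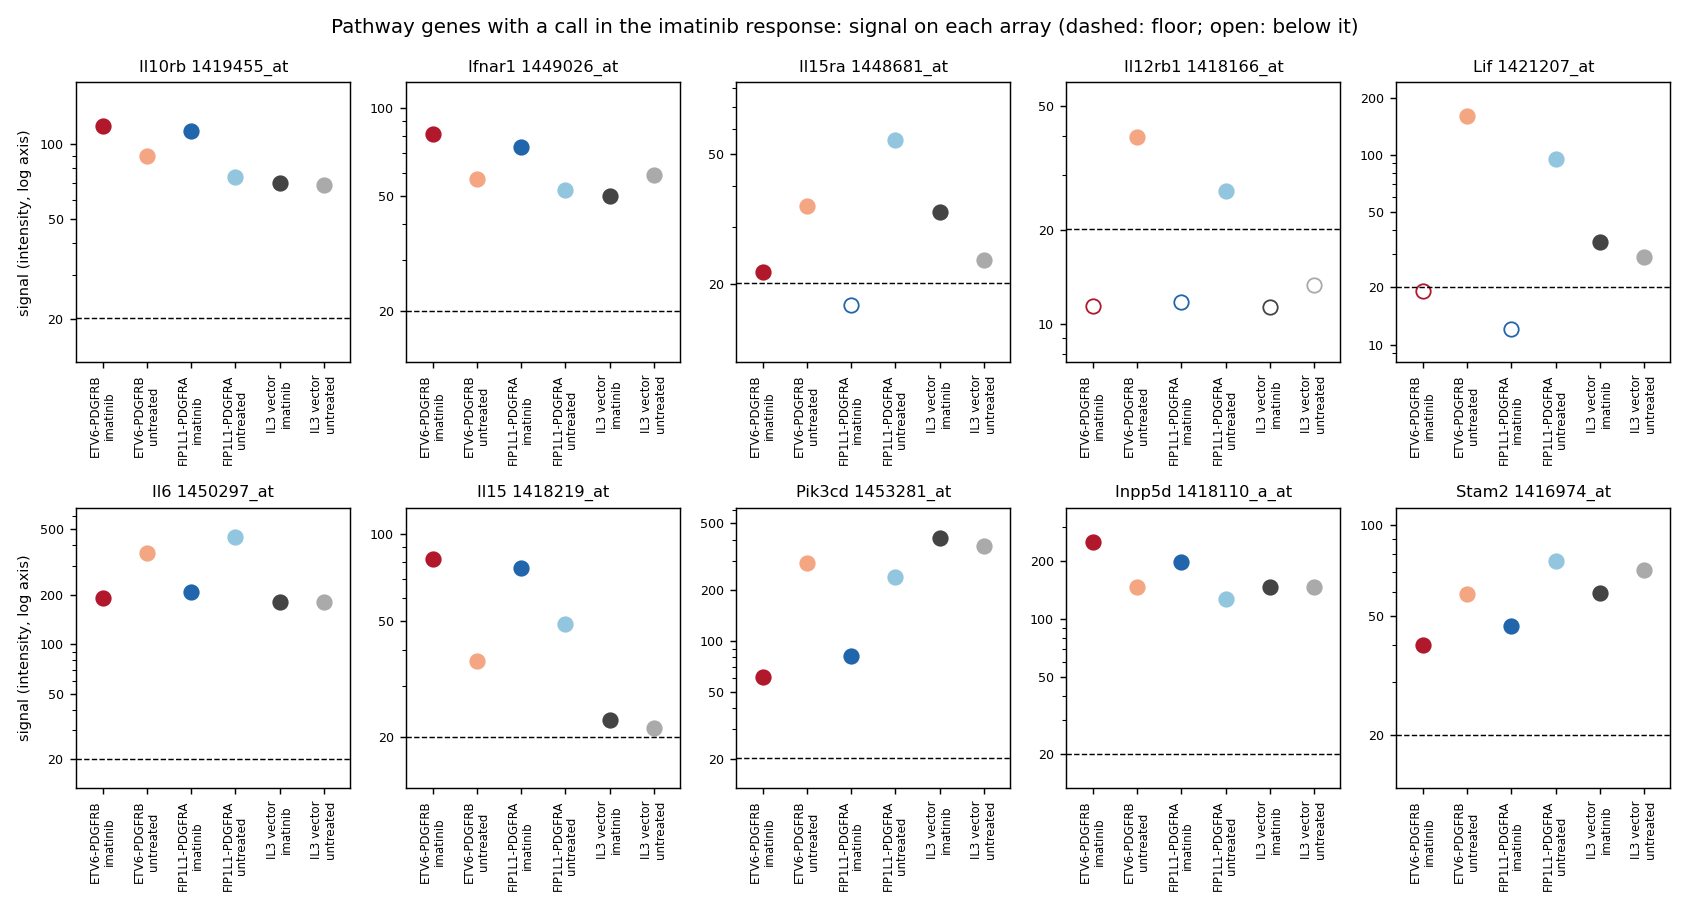
Signal (intensity, log axis) on each of the 6 arrays for 10 of the 12 pathway genes called in the limma imatinib response, with the floor of 20.1 dashed and open points below it. Lif and Il6 were highest on the untreated fusion arrays, Pik3cd was lowest on the treated fusion arrays, and Il10rb and Inpp5d were highest there.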

How the data were processed

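RNA of 6 Ba/F3 cultures was hybridised to 6 mouse arrays, 5 µg per labelling reaction. The authors deposited linear intensity signals. The submitters' processing notes name GCOS 1.4.0 and MAS5. Detection calls were not used here. The trimmed mean (2% at each end) was 100.04 to 100.05 on each array, so the arrays were scaled to a common level. Probe sets were named from the platform annotation: of 22690, 20393 had 1 symbol, 691 several and 1606 none. Member symbols matched the RefSeq gene numbers, with 0 differences.

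Signals were floored at the median of the arrays' 50th percentiles, then log2-transformed. Control probe sets (64) were left out, and probe sets above the floor on at least 2 arrays were tested in limma 3.58.1 (R 4.3.3) with Benjamini-Hochberg adjustment. The imatinib and between-line fits had the line as a block (2 residual degrees of freedom). The fits against vector cells had 3 states of 2 arrays and no line block (3 residual). Their vector state was a single line, treated and untreated. The difference of responses had the line as a block and 1 residual degree of freedom. Floored arrays add no spread, so where a fusion array was floored no SE is given. The imatinib response fit and the treated fusion fit against vector cells were also run on simulated data. Those data had no line differences, so the run checks the code and not the error here. Other analysis used Python 3.11.15 and pandas 2.3.3. Alternatives were floors at the 40th and 60th percentile, a pseudocount of 16, hybridization control scaling (18 probe sets), quantile normalization, 1 probe set per gene, no filter, the fusion arrays alone, and leaving out a line or array.

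Named genes were the 10 members, called genes of the pathway lists, and the 3 genes nearest in pattern to each member above the floor throughout and spanning at least 2-fold. The members and lists were chosen with earlier results of these data known, and the promoter motifs after the values were seen.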

Additional observations from a re-analysis of the deposited data

How the results depend on the processing

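The imatinib fits paired the treated and untreated array of each line through the line block. No further replicate block could be fitted, since the labels give no replicate numbers. Il4ra and Ifngr1 kept the direction of their imatinib response under all settings run, and their calls under the floors, scalings and pseudocounts, except that Ifngr1 had adjusted p = 0.0503 with the 4 fusion arrays alone, at the same log2 change of 1.002. Without either line the changes were -2.06 or -2.23 for the first Il4ra probe set and 1.24 or 0.76 for Ifngr1, in fits that called 0 probe sets anywhere and so say nothing about stability. At the 60th percentile floor the second Il4ra probe set changed by -1.06, a size set by that floor.

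For the imatinib response of fusion cells, 2456 probe sets were called, against 1464 with a floor at the 40th percentile, 1065 with no filter and the pseudocount, 699 with the 4 fusion arrays alone, and 0 to 0 without either line, where 1 residual degree of freedom was left. For untreated fusion cells minus vector cells, 140 were called, and 0 to 4 when a line or the treated vector array was left out. For treated fusion cells minus vector cells, 1836 were called, 951 with no filter and the pseudocount, and 0 to 0 in the leave-one-out fits. The difference of the fusion and vector responses gave 0, but 202 with the pseudocount, among them both Il4ra probe sets (adjusted p = 0.0189 and 0.0302). With the pseudocount and no filter it gave 0 again, with adjusted p = 0.431 for both. Between the fusion lines 44 were called, against 2 and 129 with floors at the 40th and 60th percentile, 163 with the pseudocount, 611 with hybridization control scaling, 67 with quantile normalization, 78 with 1 probe set per gene, and 6 with no filter and the pseudocount. With hybridization control scaling 10.3% of those calls were higher in ETV6-PDGFRB cells, against 54.5% before.

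At least 2-fold with imatinib were 530 probe sets in ETV6-PDGFRB cells (343 with the 60th percentile floor, 335 with the pseudocount, 339 with no filter and the pseudocount, 306 with 1 probe set per gene), 565 in FIP1L1-PDGFRA cells (350, 350 and 348 with the pseudocount, no filter and 1 probe set per gene) and 20 in vector cells (103 and 4 with the lower and higher floor, 9 with 1 probe set per gene). Hybridization control scaling gave all probe sets a median log2 ratio of -0.15 in ETV6-PDGFRB cells, where it had been 0.03, and of -0.23 in FIP1L1-PDGFRA cells, where it had been 0.04. Under it, Csf2rb2 (-0.49, limma adjusted p = 0.0464) and Ifngr2 on 1423558_at (-0.80, adjusted p = 0.0307) were called lower with imatinib. Treated fusion cells minus vector cells passed for Ifngr1 with the pseudocount (1.46, limma adjusted p = 0.0471), but not with the pseudocount and no filter (adjusted p = 0.127).

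Reversals concerned uncalled values. In the imatinib response Ifngr2 on 1423557_at was 0.0015 with the 60th percentile floor and ranged from -0.76 to 0.055 in the leave-one-out fits, and Csf2rb from -0.28 to 0.069. For untreated fusion cells minus vector cells, Il2ra on 1420691_at and 1420692_at was -0.17 and -0.015 with the 40th percentile floor, -0.18 and -0.065 with the pseudocount, with or without the filter, and in the leave-one-out fits from -0.22 to 0.93 and from -0.51 to 1.56, negative without the FIP1L1-PDGFRA line. Csf2rb2 in treated fusion cells minus vector cells was -0.18 with hybridization control scaling, -0.016 with quantile normalization and from -0.14 to 0.18 in the leave-one-out fits. Ifngr2 on 1423558_at between the fusion lines was -0.044 with the 60th percentile floor, -0.20 with hybridization control scaling and -0.053 with quantile normalization. The cause was not tested.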
